A study of Mus musculus with 31 samples.

Results

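Pyruvate made by glycolysis enters mitochondria through a carrier and is turned into acetyl-CoA by the pyruvate dehydrogenase complex, and 10 genes of these steps are described here across 3 fat depots of the mouse and 3 times in the cold. They were chosen by name, from a list of carrier, complex and regulatory genes, and each was represented by the row of its RefSeq accession with the highest total count; they are 10 of the 17334 accessions with counts. The libraries came from male C57BL/6J mice aged 8 weeks that had been kept at thermoneutrality for 8 days. Fat was then taken without cold (day 0) or after 2 or 4 days at 4 °C. Interscapular brown adipose tissue (iBAT) gave 3, 4 and 3 libraries at days 0, 2 and 4, inguinal white adipose tissue (iWAT) gave 4, 3 and 5, and epididymal white adipose tissue (eWAT) gave 3, 3 and 3. Each library was made from total RNA of snap-frozen tissue with an Illumina protocol and is named here by its depot and label number (iBAT516). All groups share the strain, sex, age and thermoneutral acclimation, and no group was kept at ordinary room temperature.

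The mitochondrial pyruvate carrier is a heteromer of MPC1 and MPC2 in the inner membrane. Inside, the complex is built from a decarboxylase (E1, with its alpha subunit from Pdha1 and its beta subunit from Pdhb), an acetyltransferase core (E2, from Dlat), a protein that binds the third enzyme to that core (from Pdhx) and the third enzyme itself (E3, from Dld). Pyruvate dehydrogenase kinases phosphorylate the E1 alpha subunit and switch the complex off, and phosphatases such as the one encoded by Pdp2 switch it on again. Pdk4 is the kinase gene best known for rising with fasting and with fatty acid supply, Pdk2 is widely expressed, and Pdk1 is known as a target of the hypoxia response. Brown fat burns fatty acids and glucose in its many mitochondria, which makes this gate one of the points where fuel choice is set.

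The genes lie on separate chromosomes apart from Pdhx and Pdk1, which are on the same one. In mm10, Mpc1 spans chr17:8283787-8297667, Mpc2 chr1:165461260-165481218, Pdha1 chrX:160122219-160138430, Pdhb chr14:8165991-8173303 and Dlat chr9:50634633-50659780. Pdhx spans chr2:103021055-103073513, Pdk1 chr2:71873215-71903858, Pdk2 chr11:95026258-95041371, Pdk4 chr6:5483351-5496278 and Pdp2 chr8:104591472-104599026. Their transcript models run from 0.958 kb (Mpc1) to 5.692 kb (Pdp2), so levels of different genes are compared only per kilobase. That scale assumes that counts cover whole transcripts, and how reads were counted is not given.

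The sequences just upstream of 3 of these genes are shown, chosen by the levels of their transcripts. Pdk4 had by far the steepest differences between depots, Pdk2 was the other kinase with a large excess in iBAT, and Pdha1 was the most abundant of the 10. Each sequence is the 250 bases before the annotated RefSeq start site in GRCm38.p6, the assembly of mm10, read 5′ to 3′ on the minus strand, on which all 3 genes lie. Capitals mark each match to CCAAT on either strand, which reads ATTGG when it lies on the other strand. Pdk4 is at chr6:5496279-5496528, Pdk2 at chr11:95041372-95041621 and Pdha1 at chrX:160138431-160138680.
Pdk4: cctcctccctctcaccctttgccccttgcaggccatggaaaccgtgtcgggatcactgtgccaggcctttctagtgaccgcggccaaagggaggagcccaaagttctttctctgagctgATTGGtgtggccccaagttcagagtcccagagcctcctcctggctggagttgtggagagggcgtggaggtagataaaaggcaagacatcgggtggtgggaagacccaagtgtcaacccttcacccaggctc
Pdk2: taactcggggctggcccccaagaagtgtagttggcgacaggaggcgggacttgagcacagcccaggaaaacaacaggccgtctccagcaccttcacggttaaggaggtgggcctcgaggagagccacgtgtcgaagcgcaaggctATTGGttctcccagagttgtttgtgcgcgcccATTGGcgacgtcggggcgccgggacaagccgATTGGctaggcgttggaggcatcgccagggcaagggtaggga
Pdha1: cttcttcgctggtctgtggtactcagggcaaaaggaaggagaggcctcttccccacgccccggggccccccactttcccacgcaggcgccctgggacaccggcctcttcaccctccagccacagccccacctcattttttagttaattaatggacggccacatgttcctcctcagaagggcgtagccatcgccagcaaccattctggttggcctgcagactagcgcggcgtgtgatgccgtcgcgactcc
The Pdk2 stretch held 3 matches, the Pdk4 stretch 1 and the Pdha1 stretch none, while 33.8% of all 32851 RefSeq promoter windows of this length hold at least 1. GC content was 58.8% in Pdk4, 62.4% in Pdk2 and 61.6% in Pdha1, beside a median of 52.4% over all windows. The number of CpG pairs was 6 in Pdk4, equal to the median of 6 over all windows, and higher in Pdk2 (19) and Pdha1 (15). RefSeq has another upstream window for Pdk2, at chr11:95040876-95041125, with 12 CpG pairs and no CCAAT match. Over the 13 upstream windows that the 10 genes have in RefSeq, other motifs were searched on both strands. TGACG was found before Pdhb, Dlat and Pdp2 and is held by 17.8% of all windows. None of the 10 had TNAAGGTCA, a motif of estrogen-related receptors (1.14% of all windows), the direct repeat of PPARs, which is AGGTCA repeated after 1 free base (0.0335%), or the palindrome of NRF1, which is GCGC on either side of AT (0.782%). None had GTAAACA, a forkhead motif (3.17%), or TGACGTCA, the cyclic AMP response element, which contains TGACG (1.55%). A match is a description of letters, and the lack of one says nothing about the factors that bind elsewhere or to other sequences.

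Levels are given in CPM, a gene's count per M counts of its library, with library sizes scaled by trimmed means (TMM). Libraries held 1.58 to 3.76 M counts for iBAT, 1.5 to 5.53 M for iWAT and 3.19 to 4.03 M for eWAT, so Pdha1 was read with 4477 to 42075 counts a library, Pdk4 with 63 to 13729, Pdp2 with 16 to 170 and Mpc2 with 2 to 118. Intervals from counting alone would understate the error, since they leave out the spread between libraries. Whether PCR duplicates were removed is not given. A main axis of variation within groups was found in each depot from 7928 genes that left out the 10 genes. Each depot's own axis accounted for 54.2% (iBAT), 43.7% (iWAT) and 53.4% (eWAT) of the variance that remained once group means were removed. The axes of the 3 depots were alike, with a correlation of at least 0.662 between any 2. Scored on the axis of the other depots, 3 iBAT, 6 iWAT and 3 eWAT libraries fell on the high side of the largest gap: iBAT535, iBAT539, iBAT548, iWAT516, iWAT517, iWAT518, iWAT550, iWAT551, iWAT553, eWAT518, eWAT532 and eWAT538. The score was centred on each depot and not on each group, so differences between days can enter it. Fits with the score or with 1 side of it may thus take up part of a change between days. Features counted exactly 1 time numbered 57 in iBAT548 and 159 in iBAT539 but 1014 to 1224 in each remaining brown fat library, so a missing value in those 2 is not shown to be a 0. Ucp1, the uncoupling protein that marks thermogenic fat, was at 7496 ± 2222 CPM (SD, n = 3) in iBAT, 212.2 ± 207.7 (n = 4) in iWAT and 8.04 ± 4.80 (n = 3) in eWAT at day 0. In iWAT it was at 6065 ± 2551 CPM (n = 3) at day 2 and 3259 ± 2411 (n = 5) at day 4.

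Markers of other tissues differed between the depots. Their sums are in CPM of the plain library total, without TMM scaling. Summed over the 16 of 17 skeletal muscle genes with a row, the level was 19670 to 64210 CPM in iBAT at day 0, 7066 to 11810 at day 2 and 4385 to 24090 at day 4, and reached no more than 3950 in any iWAT library and 1442 in any eWAT library. In the day 0 comparisons, iBAT exceeded iWAT in 13 of 15 tested muscle genes and eWAT in 13 of 15, beside 8.12% and 5.07% of all genes. The lymphocyte genes summed to 804.5 to 4359 CPM over the iWAT libraries and to at most 53.62 elsewhere. Genes of epididymis and testis summed to 127.9 to 39050 CPM in eWAT, up to 6097 in iWAT and at most 6.276 in iBAT. Epithelial genes summed to 23.61 to 13650 CPM, macrophage genes to 18.16 to 296 and endothelial genes to 152.1 to 1040 over all libraries. Brown adipocyte genes summed to 8649 to 11270 CPM in iBAT at day 0 and to 16120 to 36740 at day 2. There, 2 of 6 passed the test against day 0, beside 0.157% of all genes. Adipocyte genes, 4 of 6 with a row, summed to 9240 to 61870 CPM over all libraries. Skeletal muscle itself expresses all of these pyruvate genes, Pdk4 and Pdk2 among them, and the part that muscle RNA plays in the values of iBAT was not tested. In bulk tissue, fewer cells of a type and less RNA per cell cannot be told apart.

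Per kilobase and averaged over the 9 groups, Pdha1 stood at 2142 CPM per kb and Mpc1 at 1640, followed by Pdhb at 491.2, Pdk4 at 350.5, Pdk2 at 76.57, Dlat at 68.9, Pdhx at 63.76, Pdk1 at 21.62, Mpc2 at 15.29 and Pdp2 at 3.285. On this scale the carrier and complex genes did not stand at one common level. Differences between genes in how reads map or were counted cannot be told apart from abundance here. The group with the lowest mean was eWAT at day 0 for 8 of the 10 genes. The exceptions were Pdk2, lowest in iWAT at day 0, and Pdp2, lowest in eWAT at day 4. The highest mean was an iBAT group for all 10.

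The clearest differences in these genes lay between depots. In the day 0 comparison of iBAT with iWAT, 5 of 10 genes were higher in iBAT at an adjusted p under 0.05 (edgeR's quasi-likelihood test with Benjamini-Hochberg adjustment over 11041 genes), beside 8.12% of all genes, and none was lower. Against eWAT, 7 of 10 were higher in iBAT, beside 5.07% of all genes. Between the white depots, 2 of 10 were higher in iWAT, beside 5.02%. After 2 days in the cold the counts were 3 (iBAT above iWAT, 5.87% of all genes), 7 (iBAT above eWAT, 7.29%) and 2 (iWAT above eWAT, 5.03%). After 4 days they were 4 (5.83%), 8 (6.67%) and 2 (4.49%) in the same order. No gene of the 10 was lower in the first-named depot in any of the 9 comparisons, while of all genes 9.77%, 5.21% and 2.8% were lower at day 0, 9.74%, 10.5% and 5.16% at day 2 and 11.7%, 11.4% and 5.44% at day 4, in that order. Some of these counts rested on single libraries. At day 0, the 2 of iWAT over eWAT became 0 without eWAT516 or eWAT518 and 1 without eWAT517 or iWAT516. At day 2, the 3 of iBAT over iWAT became 0 without iWAT539 and 1 without iWAT532, and the 2 of iWAT over eWAT became 1 without eWAT532, eWAT538, iWAT532 or iWAT538. At day 4, the 8 of iBAT over eWAT became 5 without eWAT551, and the 2 of iWAT over eWAT became 6 without iWAT555 and 4 without iWAT548. Counted by overlap, every library of the first-named depot lay above every library of the other for 8, 8 and 4 of the 10 genes at day 0 (15.3%, 14.1% and 10.1% of all genes), for 6, 6 and 6 at day 2 (10.3%, 9.32% and 15.6%) and for 3, 9 and 2 at day 4 (6.5%, 11.5% and 6.96%). The labels do not say that libraries of a group came from separate animals, so these p-values measure only the spread between the libraries. Nor do they say whether libraries with the same number came from the same animal, and these tests did not pair them.

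**Figure D1:**
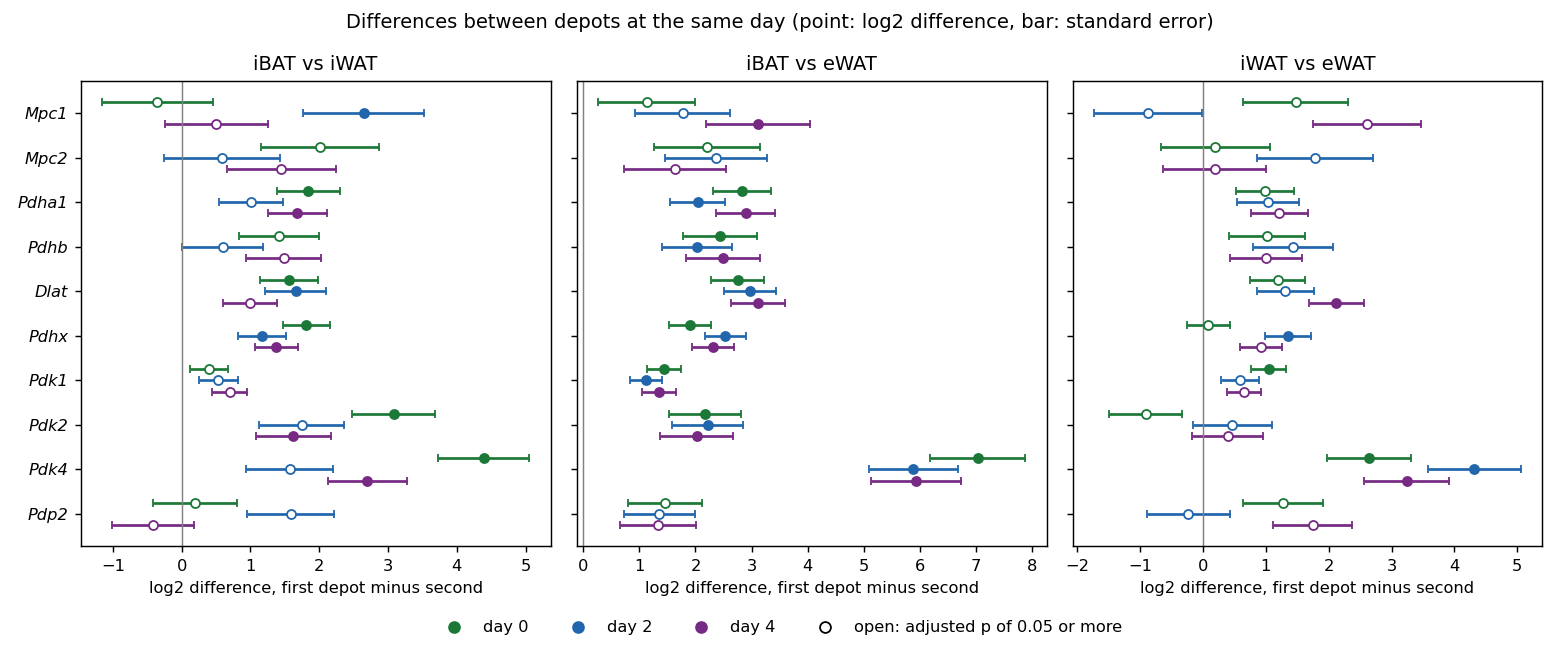
Log2 differences between depots (x axis, bars are standard errors) for the 10 genes (y axis), with a panel for each pair of depots and a colour for each day. Open points have an adjusted p of 0.05 or more. Pdk4 lies farthest right in the panel of iBAT against eWAT, at 7.03, 5.89 and 5.94, and all points of Mpc2 and Pdp2 are open.

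Other mitochondrial genes were higher in iBAT by about as much. The median log2 difference of the 10 genes was 1.69 for iBAT against iWAT and 2.19 for iBAT against eWAT at day 0, where the median of all genes was -0.18 in both. A reference list of 18 mitochondrial genes with a row (import, chaperone and respiratory chain genes) had medians of 1.73 and 2.19 in the same comparisons. Of its genes 12 and 9 were higher, beside 8.12% and 5.07% of all genes, and none was lower. Among them Uqcrc1, a core protein of respiratory complex III, was higher by 2.90 and 3.47, and Cycs, cytochrome c, by 2.41 and 2.98. Between iWAT and eWAT at day 0 the 10 genes had a median of 1.03 and the reference list 0.51. No test of one list against the other was made. Measured from the median of all genes, the median of the 10 genes lay 1.06 to 2.81 higher over the 9 depot comparisons, and 0.94 to 2.79 higher with library size alone as the scale.

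Pdk4, the kinase gene regulated by fuel supply, had the widest range. In iBAT at day 0 it stood at 2986, 4103 and 4072 CPM in iBAT516, iBAT517 and iBAT518. In iWAT at day 0 it was at 103.5, 108.9, 189.9 and 306.3 CPM in iWAT516, iWAT517, iWAT518 and iWAT522, and in eWAT at day 0 at 25.62, 36.65 and 22.75 CPM in eWAT516, eWAT517 and eWAT518. The 3 depots did not overlap at all at day 0, with every iBAT library above every iWAT library and every iWAT library above every eWAT library. Group means were 3721 ± 636.1 CPM (SD, n = 3), 177.1 ± 94.71 (n = 4) and 28.34 ± 7.34 (n = 3). The log2 difference was 4.39 (SE 0.66, adjusted p = 3.87e-05) for iBAT over iWAT and 7.03 (SE 0.84, adjusted p = 3.8e-06) for iBAT over eWAT. Both stayed past the threshold under every alternative setting and with any 1 library left out.

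The step from iWAT to eWAT at day 0 was 2.64 in log2 (SE 0.67, adjusted p = 0.013), and it was past the threshold in 6 of 7 alternatives and in 5 of 7 fits with 1 library left out, being lost without eWAT516 or without eWAT518. At day 2 the same step was 4.32 (SE 0.74, adjusted p = 0.000383) and at day 4 it was 3.24 (SE 0.68, adjusted p = 0.0023), and these held throughout. Pdk4 passed the test between iWAT and eWAT on all 3 days, and no other of the 10 genes did so in edgeR, while in DESeq2 Dlat did as well.

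In the cold, Pdk4 in iBAT was at 3039, 3294, 1580 and 853.9 CPM in iBAT532, iBAT534, iBAT535 and iBAT539 at day 2. It was at 581, 4713 and 5210 CPM in iBAT548, iBAT550 and iBAT555 at day 4. The 3 low values were those of the libraries on the high side of the score, iBAT535, iBAT539 and iBAT548, and all other iBAT libraries lay between 2986 and 5210 CPM. The log2 change from day 0 was -0.71 (SE 0.61, adjusted p = 0.659) at day 2 and -0.05 (SE 0.66, adjusted p = 0.992) at day 4. Among libraries on the low side alone it was -0.19 (SE 0.30) and 0.45 (SE 0.30). The muscle marker sum, on the plain library total, was lowest of iBAT in iBAT555 (4385 CPM), where TMM-scaled Pdk4 was highest. It was highest in iBAT518 (64210 CPM), where Pdk4 was at 4072. It was 10890 and 9927 CPM in iBAT535 and iBAT539, where Pdk4 was low. Whether the muscle sum and Pdk4 go together was not tested.

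In iWAT, Pdk4 was at 1205, 617.2 and 389.5 CPM at day 2 in iWAT532, iWAT538 and iWAT539, every one above the highest day 0 library. At day 4 it was at 771, 402.6, 481.8, 858.6 and 184.8 CPM in iWAT548, iWAT550, iWAT551, iWAT553 and iWAT555, and iWAT555 fell within the day 0 range. The log2 change was 2.02 (SE 0.58, adjusted p = 0.303) at day 2 and 1.60 (SE 0.53, adjusted p = 0.491) at day 4, and neither passed the test. At day 0, 3 of the 4 iWAT libraries were on the high side of the score and at day 2 none was. With the low side alone, which leaves only iWAT522 at day 0, the day 2 change was 1.25 (SE 1.03).

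In eWAT, Pdk4 was at 15.88, 31.47 and 63.56 CPM at day 2 in eWAT532, eWAT538 and eWAT539 and at 69.2, 47.28 and 54.48 CPM at day 4 in eWAT548, eWAT551 and eWAT553. The day 4 libraries all lay above the day 0 libraries, with a log2 change of 0.99 (SE 0.50, adjusted p = 1). Ordered by mean, the 9 groups ran from 28.34 CPM in eWAT at day 0 to 3721 CPM in iBAT at day 0. Neighbours in that order overlapped everywhere except between eWAT at day 4, with a highest library of 69.2, and iWAT at day 0, with a lowest of 103.5.

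Beside the 4.39 of day 0, the difference of iBAT from iWAT in Pdk4 was 1.57 (SE 0.63, adjusted p = 0.0945) at day 2 and 2.70 (SE 0.57, adjusted p = 0.00172) at day 4. The day 2 value passed the test in 3 of 7 alternatives, which were DESeq2, a covariate for the library score (2.10, adjusted p = 0.0082) and the low-side libraries alone (2.15, adjusted p = 0.0162). It did not pass without a filter, with RLE scaling, with library size alone or with the label number as a block, where the adjusted p reached 0.464, nor in any of 7 fits with a library left out. Tested directly, the day 2 change in iBAT minus that in iWAT was -2.82 (SE 0.85, adjusted p = 0.432), with an unadjusted p of 0.00266. It was -2.03 with the score as a covariate and -1.51 among low-side libraries, so the difference between the depots' responses did not pass the test.

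**Figure D2:**
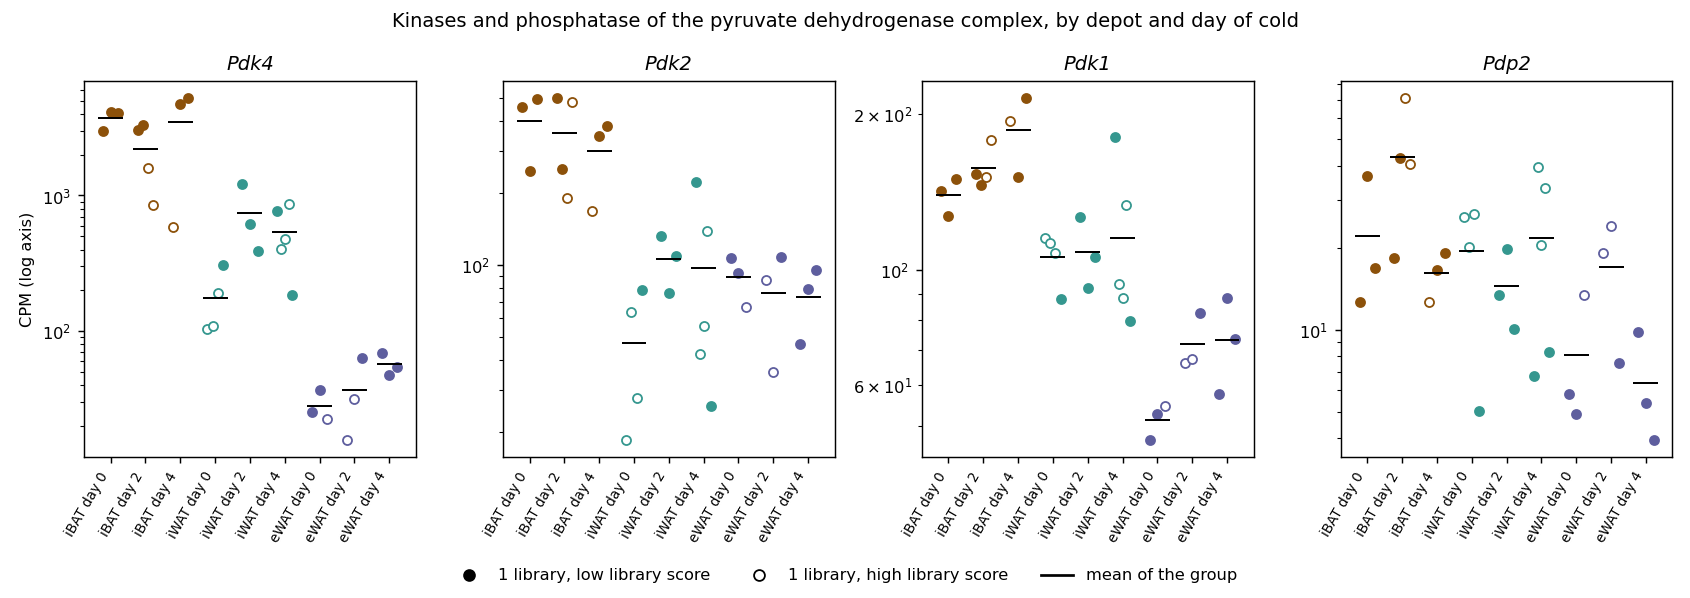
CPM on a log axis (y) for Pdk4, Pdk2, Pdk1 and Pdp2 in each library, by depot and day (x). Filled points are libraries on the low side of the library score, open points those on the high side, and black lines are group means. Pdk4 spans 15.88 to 5210 CPM and its 3 lowest iBAT points are open, while Pdk1 stays between 47.04 and 214.3 CPM.

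Pdk2, the widely expressed kinase, was also highest in iBAT but had another order in the white depots. At day 0 it was at 458, 247.8 and 496.3 CPM in the iBAT libraries, at 18.57, 63.58, 27.89 and 78.56 in the iWAT libraries, and at 107.3, 92.91 and 66.78 in the eWAT libraries. The iBAT libraries lay above all others, and eWAT518 alone of the eWAT libraries fell within the iWAT range. The log2 difference was 3.08 for iBAT over iWAT (SE 0.60, adjusted p = 0.000666) and 2.17 for iBAT over eWAT (SE 0.65, adjusted p = 0.0308). The second was past the threshold in 4 of 7 alternatives and in 1 of 6 fits with a library left out. For iWAT against eWAT it was -0.91 (SE 0.58, adjusted p = 0.389).

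At day 2, Pdk2 was at 500.4, 252.4, 191.9 and 482.7 CPM in iBAT, at 133, 76.16 and 109.6 in iWAT and at 86.46, 35.59 and 108.3 in eWAT. At day 4 it was at 168, 348.5 and 383.4 CPM in iBAT, at 223.9, 42.31, 55.44, 139.2 and 25.75 in iWAT and at 46.74, 79.45 and 95.16 in eWAT. At day 2 the iBAT libraries again lay above all white fat libraries, and at day 4 iWAT548 exceeded iBAT548. Differences of iBAT from eWAT passed the test on both cold days (2.22, adjusted p = 0.0153, and 2.02, adjusted p = 0.0303), and the second held in 1 of 6 fits with a library left out. Against iWAT the difference was 1.75 (SE 0.62, adjusted p = 0.0528) at day 2 and 1.63 (SE 0.55, adjusted p = 0.0389) at day 4, and the latter held in 3 of 8 such fits. The day 2 value passed in 2 of 7 alternatives.

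Pdk1, a kinase induced by hypoxia, varied little within most groups. At day 0 it was at 141.9, 127.2 and 149.5 CPM in iBAT, at 115.3, 112.5, 108 and 88.01 in iWAT and at 47.04, 52.64 and 54.55 in eWAT. The 3 depots did not overlap, and the steps were far smaller than those of Pdk4. Pdk1 was higher than in eWAT in iBAT (1.44, SE 0.30, adjusted p = 0.00225) and in iWAT (1.04, SE 0.28, adjusted p = 0.0216), the latter in 3 of 7 fits with a library left out. On the cold days iBAT was above eWAT by 1.13 (SE 0.28, adjusted p = 0.00723) and 1.35 (SE 0.30, adjusted p = 0.00285). In eWAT the means were 51.41 ± 3.905 CPM at day 0, 72.01 ± 9.222 at day 2 and 73.14 ± 15.24 at day 4, with n = 3 each and every cold library above every day 0 library, but neither cold change passed the test.

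The makeup of the kinase transcripts differed between depots. As a share of the summed CPM per kb of Pdk4, Pdk2 and Pdk1, Pdk4 made up 78.8%, 89.7% and 82.4% in the iBAT libraries of day 0, 49.3%, 38.5%, 62.1% and 62.9% in iWAT, and 11.5%, 17% and 14% in eWAT. In eWAT at day 0 the larger share was that of Pdk2, at 74.4%, 66.7% and 63.6%. The sum itself was 1088 to 1419 CPM per kb for iBAT, 60.22 to 139.9 for iWAT and 46.79 to 64.19 for eWAT. In cold iWAT the Pdk4 share was 80.5%, 77.4% and 61.8% at day 2 and 62.2%, 75.8%, 76.8%, 73.8% and 66.4% at day 4. In cold eWAT it was 8.17%, 23.9% and 22.1% at day 2 and 38.3%, 20.6% and 21.7% at day 4. iBAT539 and iBAT548, with 49.6% and 59.8%, had the lowest Pdk4 shares in iBAT. Since the genes were chosen with results known, these shares are given without a test.

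**Figure D3:**
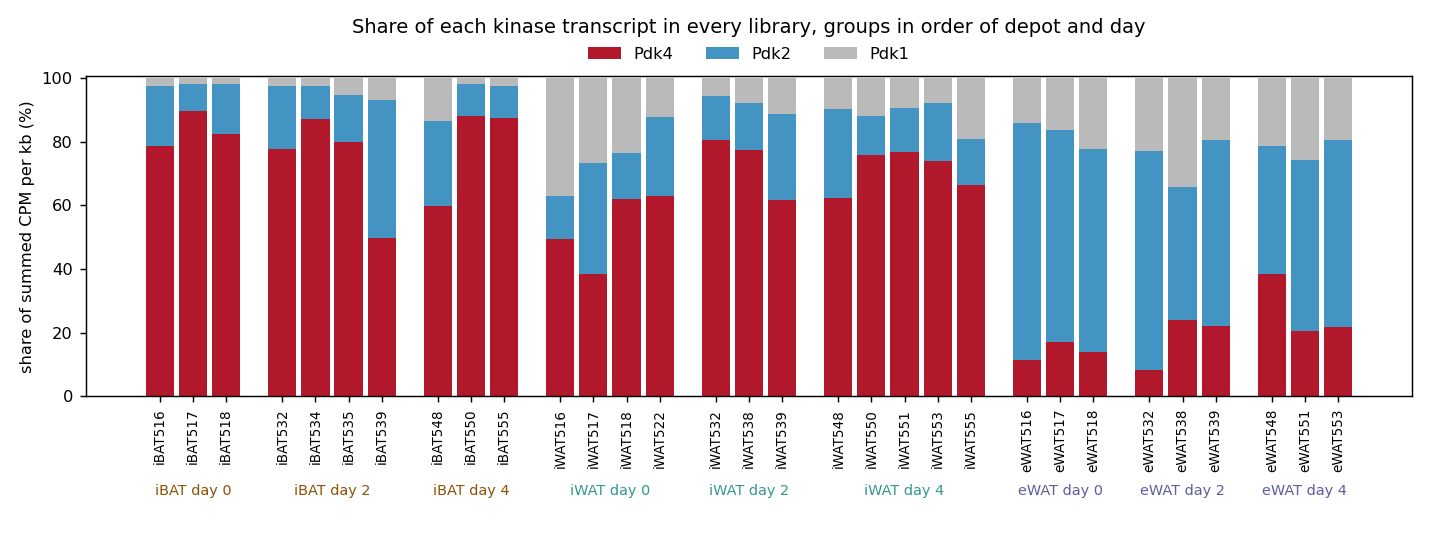
Stacked bars show the percentage (y) of the summed CPM per kb of Pdk4, Pdk2 and Pdk1 that each gene takes in each library (x), by depot and day. Pdk4 fills most of the bar in iBAT and Pdk2 most of it in eWAT at day 0, with iWAT in between.

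Pdp2 encodes a phosphatase that reverses the kinases. It was the lowest per kilobase and did not pass the test in any depot comparison, where its log2 differences ran from -0.42 to 1.74. At day 0 it was at 12.64, 36.65 and 16.91 CPM in iBAT, at 25.88, 20.22, 26.7 and 5.02 in iWAT and at 5.805, 4.901 and 13.45 in eWAT, so the depots overlapped. At day 2 it was at 18.39, 42.58, 70.93 and 40.79 CPM in iBAT, at 13.39, 19.79 and 10.09 in iWAT and at 19.16, 24.12 and 7.533 in eWAT. At day 4 it lay between 12.66 and 19.15 CPM in iBAT, 6.776 and 39.52 in iWAT and 3.944 and 9.853 in eWAT. Some alternatives did call it: with the library score as a covariate Pdp2 was higher in iBAT than in eWAT on all 3 days (adjusted p = 0.00961, 0.0103 and 0.0314), at day 0 also among low-side libraries. DESeq2 called it for iBAT over iWAT at day 2 (adjusted p = 0.0433) and for iWAT over eWAT at day 4 (adjusted p = 0.0341), the latter also called without iWAT548 or iWAT555. A count of 16 to 170 a library limits its precision, and a p that misses the threshold does not show that the depots were alike.

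Among the complex genes, Pdha1, for the catalytic E1 alpha subunit that the kinases phosphorylate, was the most abundant. At day 0 it was at 11820, 8384 and 7620 CPM in iBAT, at 2023, 2111, 3339 and 2863 in iWAT and at 896.1, 1788 and 1225 in eWAT. The depots did not overlap. The difference was 1.84 for iBAT over iWAT (SE 0.46, adjusted p = 0.00566) and 2.83 for iBAT over eWAT (SE 0.52, adjusted p = 0.000659). At day 4 iBAT reached 13310, 21130 and 16490 CPM, each above every iBAT library of days 0 and 2, and exceeded iWAT by 1.68 (SE 0.43, adjusted p = 0.00706) and eWAT by 2.90 (SE 0.52, adjusted p = 0.000482). Reads of 2 other genes may be mixed with those of Pdha1, since 4930519F09Rik is 90.1% identical over 1118 bases and Map3k15 matches 426 bases. The log2 change in iBAT from day 0 to day 4 was 0.96 (SE 0.35, adjusted p = 0.573). At day 2 the 4 iBAT libraries lay between 9131 and 11020 CPM, within the day 0 range. In iWAT, day 2 ran from 3225 to 7845 CPM and day 4 from 1388 to 8016, so both overlapped day 0.

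Pdhb, for the E1 beta subunit, was at 858.8, 961.7 and 646.3 CPM in iBAT, at 172.7, 173.4, 395.8 and 488.2 in iWAT and at 135.9, 243.4 and 75.35 in eWAT at day 0. It passed the test against eWAT on all 3 days, by 2.44 (SE 0.66, adjusted p = 0.0168), 2.02 (SE 0.62, adjusted p = 0.0246) and 2.49 (SE 0.66, adjusted p = 0.00989), and against iWAT on none, although 3 of 7 alternatives called it there at day 4. The day 0 and day 2 calls each ended in 3 of the fits that left out a library. A copy of Pdhb elsewhere in the genome is 97.0% identical over 1079 bases, 71.3% of the transcript, so reads may be split between them.

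Dlat makes the E2 core. At day 0 it was at 382.5, 391.4 and 271.7 CPM in iBAT, at 119, 128.6, 141.2 and 82.69 in iWAT and at 32.63, 56.47 and 66.05 in eWAT, without overlap between depots. The excess in iBAT was 1.56 over iWAT (SE 0.42, adjusted p = 0.00969) and 2.75 over eWAT (SE 0.48, adjusted p = 0.000348). In iBAT it was at 579.4, 632.5, 1048 and 641.8 CPM at day 2 and at 586.1, 556.1 and 594.9 at day 4, all above the day 0 libraries. The log2 change was 1.14 (SE 0.34, adjusted p = 0.21) at day 2 and 0.84 (SE 0.35, adjusted p = 0.679) at day 4.

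Pdhx ties E3 to the E2 core. It was at 150.5, 236.9 and 140.6 CPM in iBAT, at 48.67, 42.38, 58.16 and 51.39 in iWAT and at 40.63, 59.67 and 41.59 in eWAT at day 0, so the white depots overlapped and iBAT lay above both. It passed the test for iBAT over iWAT and over eWAT on all 3 days, as no other complex gene did in edgeR and Dlat also did in DESeq2, by 1.81, 1.17 and 1.38 against iWAT (adjusted p = 0.000413, 0.0208 and 0.00319) and by 1.90, 2.53 and 2.31 against eWAT (adjusted p = 0.00131, 3.7e-05 and 0.000159). The day 2 value against iWAT held in 4 of 7 fits with a library left out. In iBAT every cold library, from 250.9 to 488.2 CPM, lay above day 0. In iWAT every cold library did so too, at 168.2, 210.6 and 133.7 CPM at day 2 and at 155.3, 169, 105.9, 156.6 and 70.01 at day 4. The log2 changes from day 0 were 1.20 (SE 0.35, adjusted p = 0.21) and 1.04 (SE 0.36, adjusted p = 0.558) in iBAT and 1.74 (SE 0.37, adjusted p = 0.247) and 1.39 (SE 0.34, adjusted p = 0.46) in iWAT.

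**Figure D4:**
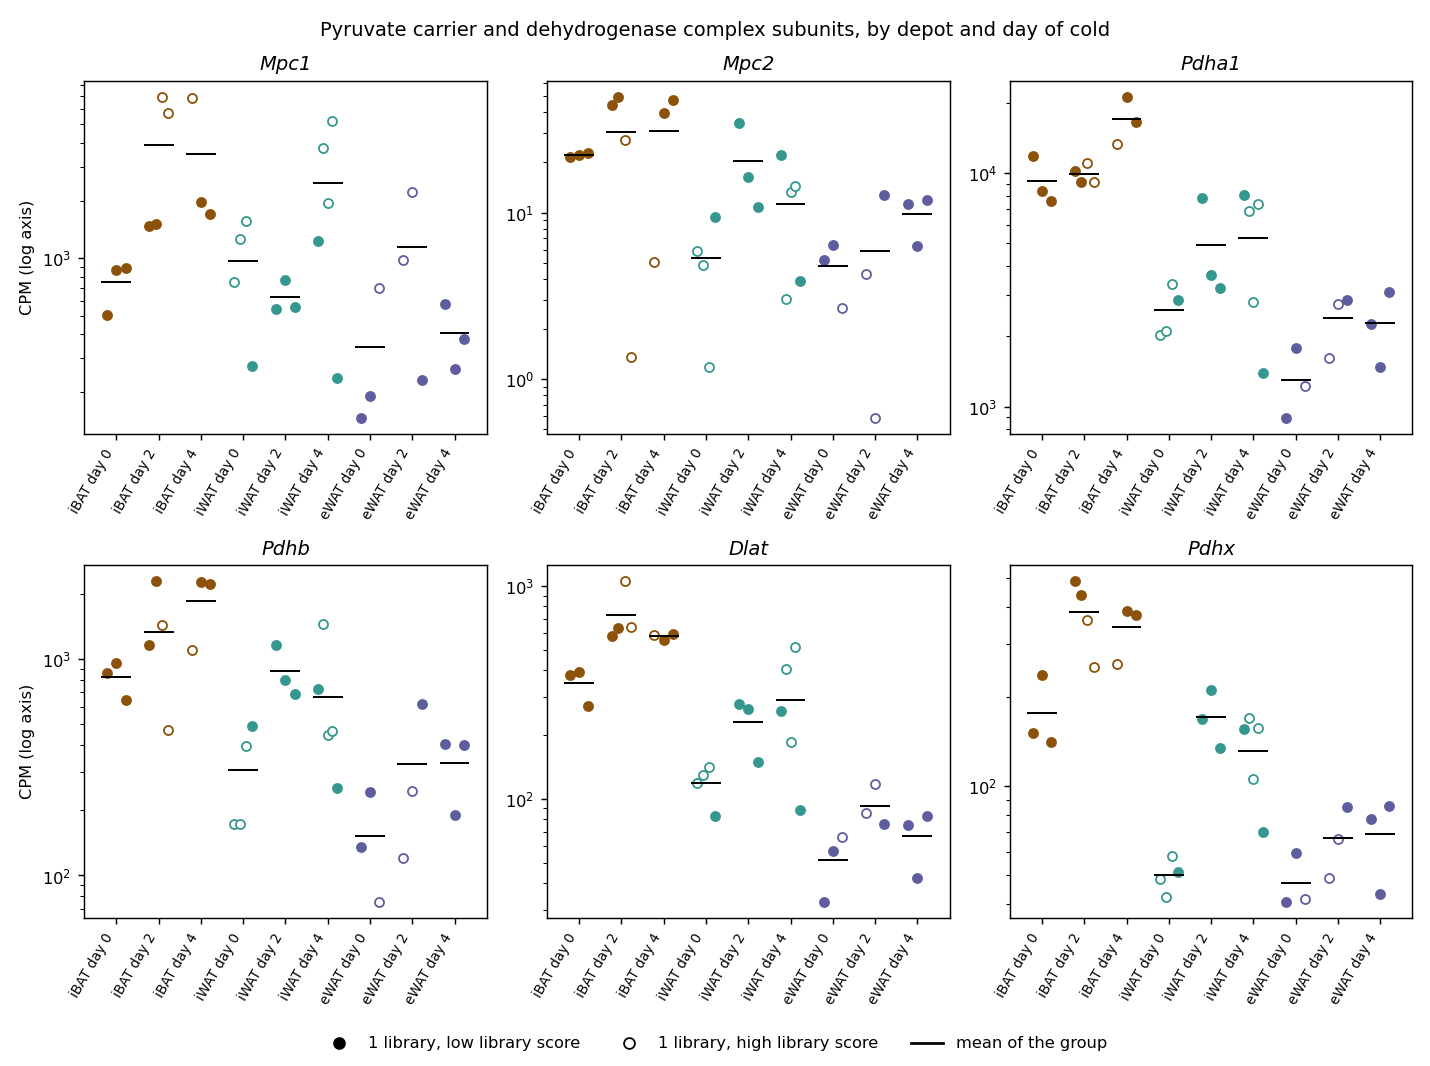
CPM on a log axis (y) for Mpc1, Mpc2, Pdha1, Pdhb, Dlat and Pdhx in each library, by depot and day (x). Filled points are libraries on the low side of the library score, open points those on the high side, and black lines are group means. The subunit genes step down from iBAT to eWAT, and open points of Mpc1 lie above the filled ones in the groups that hold both.

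Both carrier genes were measured with more uncertainty than the complex. Mpc1 was at 508.5, 864.8 and 890.8 CPM in iBAT, at 751.4, 1260, 1567 and 272.3 in iWAT and at 147.1, 190.3 and 698.7 in eWAT at day 0, with overlap between all depots. At day 2 it was at 1473, 1502, 6936 and 5733 CPM in iBAT and at day 4 at 6872, 1971 and 1706, every cold library above day 0. In all 6 groups that held libraries of both sides of the score, every high-side library had more Mpc1 than every low-side library. Mpc1 also has a processed copy that is 99.7% identical over 330 bases, 34.4% of the transcript.

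The day 2 log2 change of Mpc1 in iBAT was 2.48 (SE 0.75, adjusted p = 0.214), and it was 1.02 (SE 0.33, adjusted p = 0.191) among low-side libraries. Between depots, Mpc1 was higher in iBAT than in iWAT at day 2 (2.65, SE 0.88, adjusted p = 0.0401), and this call held in 2 of 7 alternatives and 2 of 7 fits with a library left out. With the score as a covariate it was 1.15. At day 4 it was higher in iBAT than in eWAT (3.11, SE 0.93, adjusted p = 0.0207), in 7 of 7 alternatives and in 3 of 6 such fits. In iWAT, Mpc1 was at 540.1, 773.8 and 558.9 CPM at day 2 and at 1227, 3765, 1937, 5211 and 238.1 at day 4, and in eWAT the cold libraries ran from 230.2 to 2220 CPM.

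Mpc2, whose protein pairs with MPC1, was at 21.61, 22.11 and 22.84 CPM in iBAT at day 0, at 5.907, 4.872, 1.187 and 9.45 in iWAT and at 5.204, 6.393 and 2.691 in eWAT. All iBAT libraries lay above all white fat libraries, yet no depot comparison passed the test, with log2 differences of 0.19 to 2.37. For iBAT over eWAT, 2 of 7 alternatives called it at day 2 and 1 of 7 at day 4. Counts were down to 2 in iBAT539, iWAT518 and eWAT538, all on the high side of the score. In 5 of the 6 groups with both sides, every high-side library had less Mpc2 than every low-side library, which is the reverse of Mpc1. The log2 ratio of Mpc1 to Mpc2 per kb therefore ran from 4.07 to 12.1 over the libraries. The part of the score in either gene was not tested beyond the values given.

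Cold exposure changed none of the 10 genes past the threshold in any depot. In edgeR's quasi-likelihood test, 0 of 10 passed for days 2 and 4 against day 0 and for day 4 against day 2 in each depot. Of all genes, 0.157% passed in iBAT at day 2 (0.133% higher and 0.0242% lower), which is 13 genes and became 0 to 3 with any 1 library of the 2 groups left out, and 0% passed in the other 8 comparisons. At an unadjusted p under 0.05 the counts of the 10 genes at days 2 and 4 against day 0 were 3 and 5 in iBAT (beside 12.4% and 7.03% of all genes), 4 and 3 in iWAT (10.7% and 8.28%) and 0 and 0 in eWAT (1.06% and 2.76%). For day 4 against day 2 they were 2, 1 and 1 (3.18%, 5.23% and 4.34%). DESeq2 called 3 in iBAT at day 2 (Mpc1, Dlat and Pdhx) and 1, Pdhx, in iWAT at day 2 and at day 4, all higher in the cold, and 0 in the other comparisons.

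The direction in the cold was mostly upward. Of the 10 genes, 8 and 7 had a positive log2 change from day 0 at days 2 and 4 in iBAT, 8 and 10 in iWAT and 9 and 8 in eWAT. Their medians were 0.63 and 0.68 in iBAT, 1.04 and 1.07 in iWAT and 0.68 and 0.51 in eWAT, where the medians of all genes lay between -0.08 and 0.01. The mitochondrial reference list had 0.71 and 0.60, 0.75 and 0.64, and 0.26 and 0.39. The 2 comparisons within a depot share their day 0 libraries. All libraries of the later day lay above all of day 0 for 3 genes at day 2 and 6 at day 4 in iBAT, beside 5.78% and 6.7% of all genes that did so. In iWAT the counts were 5 and 1, beside 8.15% and 0.856%, and in eWAT 2 and 2, beside 2.12% and 4.9%. For day 4 against day 2, 1 gene (Pdha1) did so in iBAT and 0 in iWAT and eWAT, beside 2.08%, 1.43% and 4.33%. None of the 10 had all libraries of the later day below those of the earlier one. Of all genes, 9.95% and 12.4% did so in iBAT at days 2 and 4 against day 0, 3.83% and 1.14% in iWAT and 2.67% and 4.13% in eWAT, and 2.49%, 2.72% and 3.44% for day 4 against day 2. Immediate early genes, which respond to tissue handling, summed to 1184 to 3579 CPM of the plain library total in iBAT at day 0. At days 2 and 4 the sums were 344.5 to 788.1 and 279.6 to 483.4. Whether they or the muscle marker sums given above bear on the changes of the 10 genes was not tested.

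**Figure D5:**
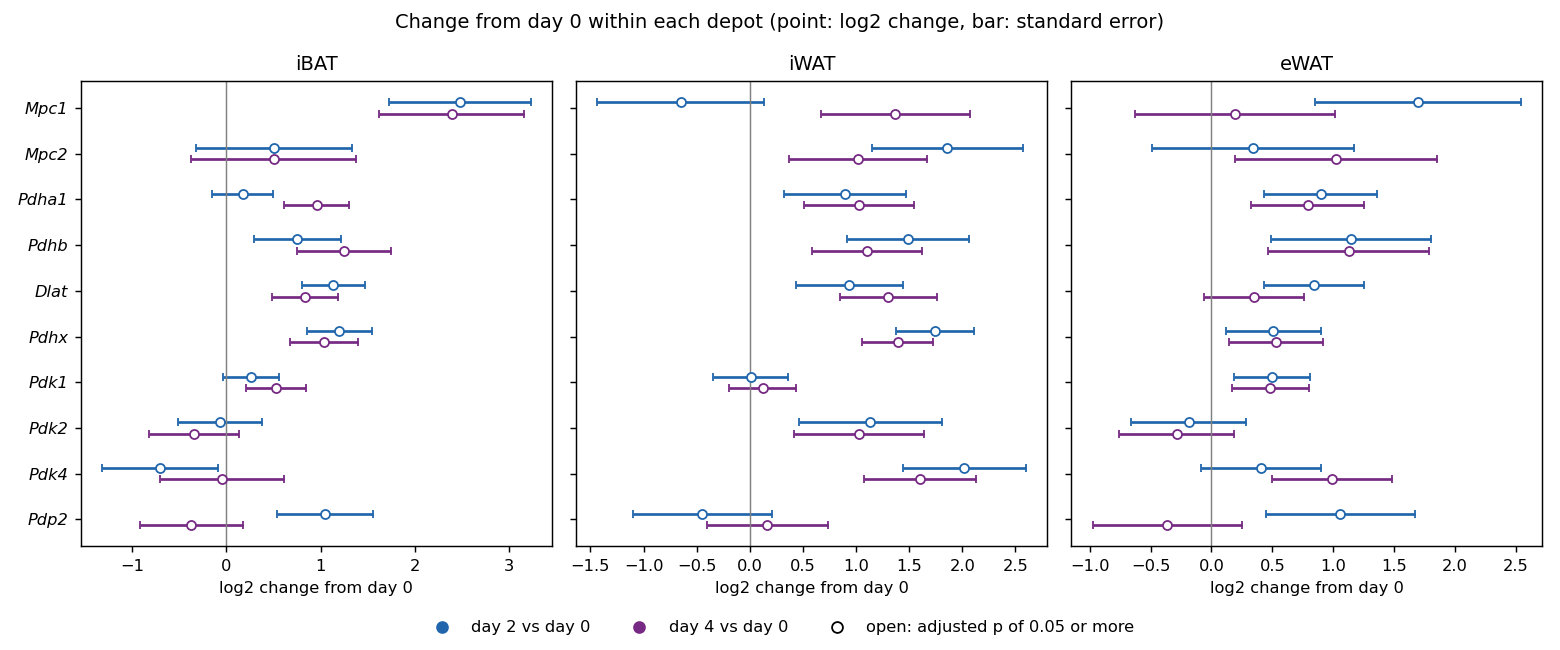
Log2 changes from day 0 (x axis, bars are standard errors) for the 10 genes (y axis) at days 2 and 4 in each depot. Most points lie right of 0, none passed the adjusted test, and the bars of Mpc1 and Mpc2 are the widest in iBAT.

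The tests of whether a cold change differed between depots gave 0 of 10 in all 6 contrasts, with edgeR and with DESeq2. In edgeR 0 of all 11041 genes passed in any of them as well, so the count is not particular to the 10. After the Pdk4 contrast of iBAT with iWAT given above, a wide one was that of Mpc1 at day 2, at 3.00 (SE 1.18, adjusted p = 0.455), and it was -0.23 among low-side libraries.

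Calls among related genes of pyruvate use went in both directions. Of 20 genes of pyruvate fates and the rest of the complex, 15 had a row and 14 were tested between depots. At day 0, 4 were higher and 2 lower in iBAT than in iWAT, beside 8.12% and 9.77% of all genes. Those higher included Slc16a1, a monocarboxylate transporter that carries lactate and pyruvate across the cell membrane (3.15), Me3, a mitochondrial malic enzyme (5.84), and Ldhb, a lactate dehydrogenase subunit (3.26). The genes that were lower were Me2, another mitochondrial malic enzyme (-1.90), and Pdk3, the fourth kinase (-3.67), both named after their values were seen. Against eWAT the counts were again 4 and 2 (5.07% and 5.21% of all genes), with Slc16a1 at 3.02 and Me3 at 6.05. On the cold days, 4 and 5 were higher than in iWAT (5.87% and 5.83% of all genes) and 1 and 1 lower (9.74% and 11.7%). Compared with eWAT, 4 and 6 were higher (7.29% and 6.67%) and 3 and 1 lower (10.5% and 11.4%). Between the white depots the counts higher and lower in iWAT were 0 and 0, 2 and 1, and 0 and 1 at days 0, 2 and 4. The shares of all genes were 5.02% and 2.8%, 5.03% and 5.16%, and 4.49% and 5.44%.

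Dld and Pdk3 complete the complex and its kinases and were singled out after their values were seen. Dld, the E3 shared with other complexes, was at 704.8 ± 289.6 CPM (SD, n = 3) in iBAT, 410.4 ± 226.7 (n = 4) in iWAT and 258.3 ± 332.6 (n = 3) in eWAT at day 0. It was higher in iBAT than in eWAT at day 4 by 3.32 (adjusted p = 0.0283) and passed in no other depot comparison. Pdk3 was at 0.8714 ± 0.04924 CPM in iBAT, 11.47 ± 5.67 in iWAT and 11.33 ± 2.185 in eWAT at day 0, and was the only one of the 4 kinase genes that was lower in iBAT.

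The sister complexes act on 2-oxoglutarate and on branched-chain oxoacids and share the same architecture. Of 8 genes with a row, 4 were higher in iBAT than in iWAT at day 0 (8.12% of all genes) and none was lower. Among those higher were Dlst, the E2 of the 2-oxoglutarate complex (2.45), Bckdha, the E1 alpha of the branched-chain complex (1.72), and Dbt, its E2 (1.29). In the same comparison at days 2 and 4 there were 2 and 3 (5.87% and 5.83% of all genes). Against eWAT there were 2, 3 and 3 at days 0, 2 and 4 (5.07%, 7.29% and 6.67%). Between the white depots there were 0, 1 and 1 (5.02%, 5.03% and 4.49%). None of the list was lower in any depot comparison, where 2.8% to 11.7% of all genes were. The lipoyl attachment genes, which supply the cofactor that the E2 proteins carry, had 6 of 6 rows. They gave 0 calls except Mcat in iBAT over eWAT at day 4 (1.84), where 6.67% of all genes were higher.

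Of 18 transcription factors known to act on Pdk4, 13 had a row and 9 were tested. At day 0, 4 were higher in iBAT than in iWAT, among them Nr4a1, an orphan receptor that is also an immediate early gene (4.56), Cebpb, a C/EBP factor of adipocytes (2.81), and Ppargc1b, a coactivator of mitochondrial genes (2.79). The immediate early genes, Nr4a1 among them, summed to 1184 to 3579 CPM of the plain total in iBAT at day 0 and 511.6 to 894.5 in iWAT. Whether tissue handling bears on the Nr4a1 difference was not tested. Over days 0, 2 and 4 the counts were 4, 2 and 4 against iWAT, beside 8.12%, 5.87% and 5.83% of all genes. They were 4, 4 and 3 against eWAT (5.07%, 7.29% and 6.67%) and 0, 2 and 1 for iWAT over eWAT (5.02%, 5.03% and 4.49%). None of these factors was lower, while 2.8% to 11.7% of all genes were. None of the pathway lists had a gene past the threshold in a cold comparison, where at most 0.157% of all genes passed.

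Among 5566 genes with a mean of at least 20 CPM, the group-mean profiles nearest to that of Pdk4 over the 9 groups were those of P2rx5 (root mean square distance 0.831 in log2), Tbx15 (0.898) and Cox7a1 (0.933), beside a median distance of 2.63. Near to Pdha1 were Ndufs3, of respiratory complex I (0.185), and Atp5o, of the ATP synthase (0.22), beside a median of 1.27. These neighbours of Pdha1 were much closer to it than those of Pdk4 were to Pdk4. The log2 ratio of Pdk4 to Pdha1 per kb was -2.28 to -1.19 in iBAT and -4.58 to -3.52 in iWAT at day 0. In iBAT it was -3.71 to -1.76 at day 2 and -4.81 to -1.95 at day 4, and in iWAT -3.34 to -2.86 and -4.38 to -2.84. The 2 depots were thus apart at day 0 and overlapped in the cold, where iBAT548, at -4.81, lay below every iWAT library. The cold iBAT libraries in that overlap were iBAT535 (-3.09), iBAT539 (-3.71) and iBAT548, all on the high side of the score. The remaining cold iBAT libraries, at -2.46 to -1.76, lay above every iWAT library. Whether the score bears on this ratio was not tested. Over the eWAT libraries the ratio was -6.96 to -5.25, below all others.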

How the data were processed

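Raw counts per RefSeq accession, 1 table per depot, were deposited by the authors. Reads were processed with cutadapt and BWA on mm10, per the submitters' processing notes, which give no versions. How reads were counted, and whether strand or duplicates were considered, is not given in the sources used here, so reads of a gene and of an overlapping or antisense one cannot be told apart. The tables hold no 0, and missing values were read as 0. Of 17334 accessions, 17030 took a symbol from RefSeq, 105 from GENCODE and 199 had none. The 10 genes and all gene lists were chosen with earlier results of these data known.

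The deposited counts were tested with edgeR 4.0.16 under R 4.3.3 (library sizes by TMM, filterByExpr with a minimum count of 10 and a minimum total of 15, robust quasi-likelihood F-tests, two-sided, Benjamini-Hochberg adjustment over all genes tested, threshold 0.05). Days were compared within a depot (8270 genes for iBAT, 9574 for iWAT, 10043 for eWAT) and depots in a fit of all 31 libraries over 11041 genes. Alternatives were DESeq2 1.42.0, scaling by RLE or by library size alone, no low-count filter, fits of the 2 compared groups only, the library score as a covariate, a replicate block, each library left out and, chosen after seeing the data, the libraries on the low side of the score only. Counts were also simulated gene by gene, without the axis of variation shared within groups, so recovery in the real libraries may differ. Simulated for iBAT at day 2 against day 0 over 8015 genes, 22.8% of 92 changes of 2 in log2 were recovered. Of 98 changes of 4, 77.6% were. For iBAT against eWAT at day 0 over 10707 genes, 19.6% of 97 and 64% of 100 were. False calls numbered 8 and 3 in the 2 simulations. Named genes were the 10, up to 3 per list with the smallest p among those past the threshold, the 3 nearest profiles to Pdk4 and to Pdha1, and Ucp1; 1 gene under this rule is not reported here. Near copies were sought with blastn 2.17.0 (at least 90% identity over 100 bases). Other steps used Python 3.11.15, pandas 2.3.3 and matplotlib 3.10.9.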

Additional observations from a re-analysis of the deposited data

Results flagged for a closer look

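Of 30 sets of libraries with 4 or 5 members (a gene in a group), 1 had a library far from the others. Dlat in iBAT at day 2 was at 1048 CPM in iBAT535, the nearest other library was at 641.8 CPM, and that gap was 0.867 of the range of the 4 libraries. Chance marks about 1 in 20 such sets. iBAT535 is on the high side of the library score, as is iBAT539, which had 641.8 CPM.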

How the results depend on the processing

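Of 168 counts of the 10 genes under alternatives that kept all compared groups, 148 stayed within 1.5 times and 20 moved, and no value past the threshold reversed. DESeq2 called 3 genes in iBAT at day 2 and 1 in iWAT at each cold day where edgeR called 0, and between depots 6 and 7 for iBAT over iWAT at days 2 and 4 and 6 for iWAT over eWAT at day 4. RLE size factors gave 7 for iBAT over iWAT at day 4, library size alone 1 at day 2, no filter 1 for iWAT over eWAT at day 0, and the score covariate 4 for iWAT over eWAT at day 4. With the low side of the score only, which leaves groups of 1 to 3 libraries, counts were 1 for iBAT over iWAT at day 0, 3 for iBAT over eWAT at day 2 and 1 for iWAT over eWAT on each day. Fewer libraries entered that fit; for the others the cause was not tested.

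Label numbers recur across depots within a day, and with the number as a replicate block the counts were 0 for iWAT over eWAT at day 0, then 0, 3 and 1 for the 3 pairs at day 2, and 2 for iBAT over iWAT at day 4. Only 7 of 23 same-numbered pairs deviated together with a correlation over 0.1 (-0.552 to 0.42, median -0.137). The axis of variation that libraries share within groups also enters these correlations, so they cannot show whether a number marks an animal. The main depot tests left the numbers out, and whether they pair the samples stays unknown. No paired analysis was possible because libraries of different days share no label number, for the cold comparisons.

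Leaving out each library gave 5 to 5, 5 to 6 and 0 to 2 at day 0 for iBAT over iWAT, iBAT over eWAT and iWAT over eWAT, 0 to 3, 5 to 8 and 1 to 3 at day 2, and 3 to 5, 5 to 7 and 2 to 6 at day 4. The cold comparisons and the differences of change between depots stayed at 0 to 0.

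Over all genes, the 13 calls of iBAT at day 2 became 306 with DESeq2, 47 with the score covariate, 53 on the low side, 37 without a filter, 22 with 2 groups only and 1 with library size alone. The 0 of iBAT at day 4 became 83, 16, 19 and 1 with DESeq2, the covariate, the low side and no filter, and iWAT gave 111 and 43 with DESeq2 at days 2 and 4. Of depot counts, 1963 for iBAT against eWAT at day 2 became 521 with the block, 3029 with library size alone and 415 on the low side. Counts of 2 in a library for Mpc2 and 16 for Pdp2 limit what depth can show for these genes.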
